A study of Rattus norvegicus with 24 samples.

Results

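The genes of the TGF-beta, BMP and activin pathway on a custom rat array were compared between skin explants exposed to allogeneic and to syngeneic lymphocytes. They were taken by name, as all non-control probes whose gene name is that of a ligand, receptor, binding protein, antagonist, Smad, Id gene or related target of the pathway, leaving out probes listed for the MHC and the NK gene complex, and none of the probes found by name was in those lists. The rule gave 63 of the 8453 probes of the array and 57 of its 7263 gene names. Each explant was paw skin of a male BN rat aged 15 weeks, kept for 3 days with lymphocytes that had been in a mixed lymphocyte reaction (MLR) for 7 days. In the syngeneic group the responder lymphocytes were of BN origin, and in the allogeneic group they were of PVG origin and had been stimulated by BN cells. The stimulator splenocytes in the MLR were irradiated with 25 Gy in both groups. Such an explant is an in-vitro model of the skin part of a graft versus host reaction, it has no blood supply, and its RNA comes from skin cells together with lymphocytes attached to or inside the skin. Both RNA samples from 1 rat were hybridized together, in Cy3 and Cy5, to 1 array and again to another with the dyes exchanged, so that 24 arrays give n = 12 rats.

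Ligands of this family are dimers that bring together type I and type II receptors, which then phosphorylate Smad proteins. TGF-beta and activin signal mainly through Smad2 and Smad3, BMPs through Smad1, Smad5 and Smad9, and both need Smad4 to act on target genes in the nucleus. TGF-beta is secreted in a latent form bound to latent TGF-beta binding proteins of the matrix, while chordin, noggin, gremlin and follistatin hold BMPs or activins away from their receptors. In skin the family is known for its part in matrix production, in the growth control of keratinocytes and in wound repair.

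The arrays limit the precision of every value by their number. The median spot intensity was 135.5 to 6668 in Cy3 and 269 to 25642 in Cy5, the top of both ranges being array 1 of rat 10, a rat that set an end of the intensity range given below for 13 of the 18 called probes, and 74.8% to 99.9% of the probe spots in a channel were well above background. Across all probes, the log ratios of a rat had a correlation of 0.224 (rat 8) to 0.829 (rat 9) with the mean of the other rats, and those of the 2 arrays of a rat one of 0.133 (rat 10) to 0.944 (rat 8). Of the symbols written down as keratinocyte markers, 13 in number, only *Trp63* had a probe, so that the skin label could be checked in that cell type by 1 gene, which was bright in both groups. Counts given below for all rats were 18 called pathway probes, and 21 without rats 8 and 10. Beside them, 17.3% and 25.2% of all probes were called.

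Signs follow the dye labels, as the log2 ratio of the sample labelled as allogeneic over the one labelled as syngeneic, and they are opposite to those of the study's own tables. Which side is turned could not be settled from the array data, so that each direction below is that of the labels only. The paper's real-time PCR on part of these sample pairs does not use the dyes. It found the direction of the study's tables for every gene compared but *RT1-CE10*, with *Aif1* up in the allogeneic explants. By the labels, an *Aif1* probe of the array had a log2 ratio of -1.27 (limma, adjusted p = 0.000102), the opposite direction. *Trem2* and *Ctss*, which the study lists as up, had -1.69 and -1.40 by the labels. The PCR is thus on the side of the study's tables and opposite to the labels, and it measured no pathway gene. A direction given here as higher would read as lower with the sign turned, and the contrast between pathway genes that moved up and down stays. With the sign turned, 16 of the calls below would be lower and 2 higher. A probe was called at an adjusted p under 0.05 in limma, with Benjamini-Hochberg adjustment over all probes. By that rule 18 of the 63 pathway probes (28.6%) were called, against 17.3% of all probes on the array. Higher in the sample labelled as allogeneic were 16 (25.4%), against 8.78% of all probes, and lower were 2 (3.17%), against 8.48%. The median log2 ratio was 0.05 over the pathway probes and 0.01 over all probes. The ratio kept its sign across the 12 rats for 6 pathway probes (9.52%), against 6.19% of all probes. For none of the 63 probes were the intensities of the 2 groups without overlap, against 0.154% of all probes. Differences were small: the largest mean among the called probes was that of *Grem1*, a 1.68-fold difference.

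**Figure D1:**
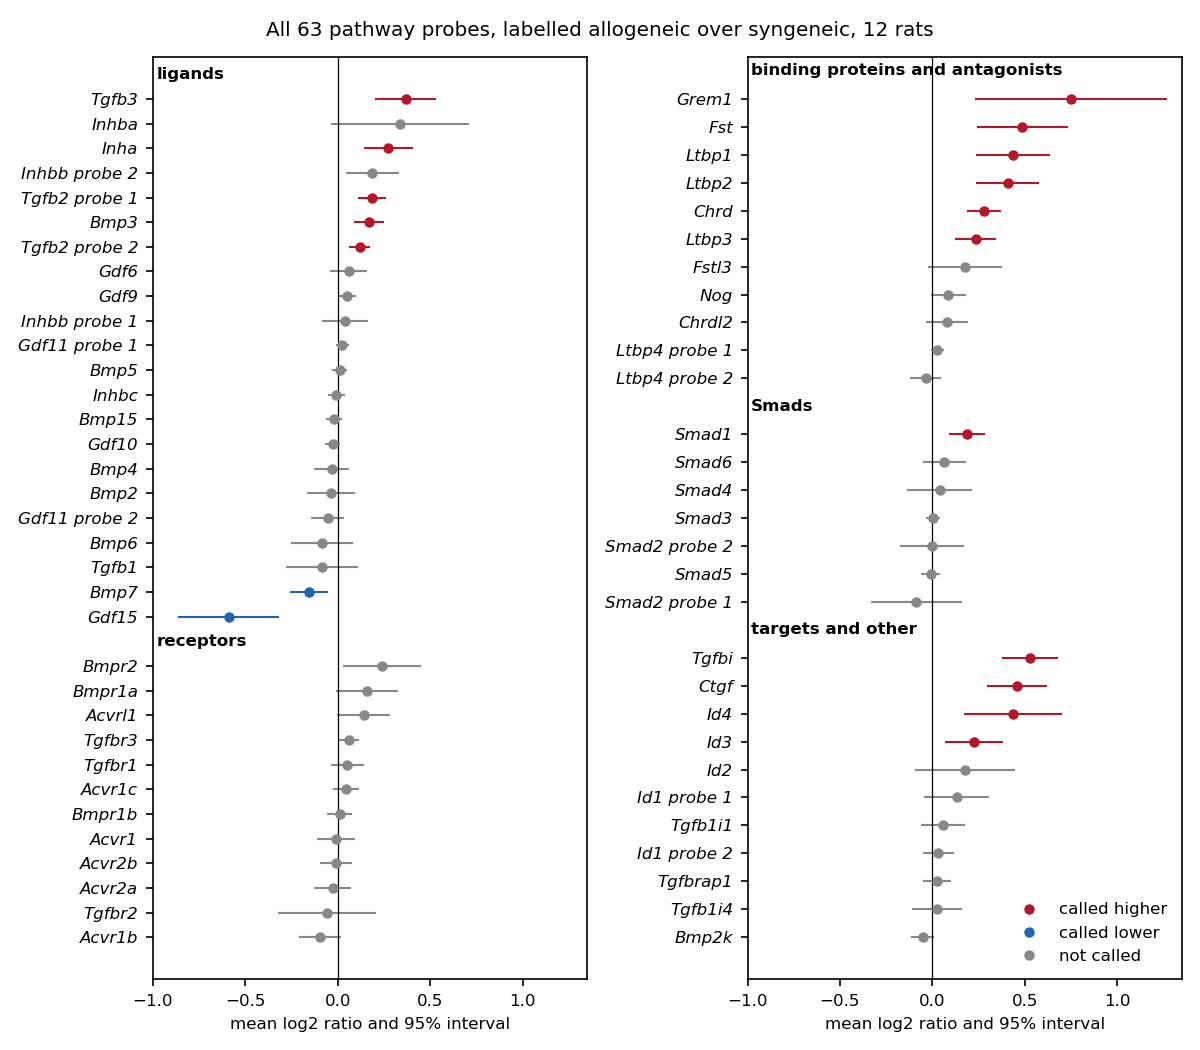
Mean log2 ratio of each of the 63 pathway probes, the sample labelled as allogeneic over the syngeneic one, with its 95% interval from limma (n = 12 rats), grouped by the role of the protein. Red probes were called higher, blue ones lower and gray ones not called: 6 of the 11 probes of binding proteins and antagonists are red and none of the 12 receptor probes is colored.

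Among the genes for ligands, 7 of 22 probes (31.8%) were called, 5 higher (22.7%) and 2 lower (9.09%), against 17.3%, 8.78% and 8.48% of all probes. *Tgfb3* and *Tgfb2*, which encode TGF-beta isoforms, *Bmp3*, which encodes a BMP that opposes other BMPs, and *Inha*, which encodes the alpha subunit of inhibin, were higher. *Gdf15*, which encodes a distant member of the family made by stressed cells, and *Bmp7* were lower. *Tgfb1*, the isoform of most immune cells, was not called.

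The log2 intensity of *Tgfb3* was 7.72 to 9.48 (median 8.92) in the syngeneic samples and 8.05 to 9.62 (median 9.32) in those labelled as allogeneic. The ranges of the 2 groups overlapped, and the value labelled as allogeneic was above the syngeneic one of the same rat in all 12. Its log2 ratio was 0.37 ± 0.28 (SD, n = 12 rats; limma, adjusted p = 0.00539), a 1.29-fold difference, with 0.01 in rat 8 and 0.85 in rat 6 as the extremes. The slide means of *Tgfb3* were 0.51, 0.42 and 0.17 for slides 1, 2 and 3, each of which held both groups of 4 rats.

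*Tgfb2* was measured by a pair of probes that share no run of more than 6 bases. Probe 1 had a log2 intensity of 6.95 to 7.49 (median 7.38) in the syngeneic samples and 6.98 to 7.76 (median 7.53) in the others, and its ratio was 0.18 ± 0.12 (adjusted p = 0.00319 from limma), above 0 in all 12 rats. Probe 2 gave 0.12 ± 0.094 (adjusted p = 0.00976 from limma), above 0 in 11 of 12. Both probes were thus on the same side. With the signals processed by the scanner software, which have another background subtraction and dye normalization, the ratios were 0.37 and 0.35. With no background correction they were 0.18 and 0.12. For *Bmp3*, whose intensity was in the same range, it was 0.17 ± 0.14 (adjusted p = 0.00795 from limma) and 0.36 with the processed signals, and 0.17 with no background correction. *Bmp3* was higher in 11 of 12 rats.

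*Inha* had a log2 ratio of 0.27 ± 0.23 (adjusted p = 0.00868 from limma), higher in 11 of 12 rats. Its intensity was 8.63 to 10.50 (median 8.97) in the syngeneic samples and 8.96 to 10.63 (median 9.24) in the others. The ratio was not the same in the dye orientations, with 0.47 where the allogeneic sample was in Cy5 and 0.08 (adjusted p = 0.356) where it was in Cy3. The beta subunits, which form activins with each other and inhibins with the alpha subunit, were not called. *Inhba* had a ratio of 0.34 ± 0.63 (adjusted p = 0.209), with a range of -0.37 to 2.10 (rat 8) and 8 rats above 0. Without rat 8 it was 0.18 (adjusted p = 0.173). The 2 probes of *Inhbb* gave 0.04 ± 0.21 (adjusted p = 0.702) and 0.19 ± 0.24 (adjusted p = 0.0715), and the second was above 0 in 11 of 12 rats. Without rat 3 the second was called, at 0.23 (adjusted p = 0.0138).

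*Gdf15* had the most negative ratio of the pathway genes, by the labels. Its log2 intensity was 10.56 to 12.91 (median 11.30) in the syngeneic samples and 10.02 to 12.45 (median 10.64) in those labelled as allogeneic, ranges that overlapped. The ratio was -0.59 ± 0.46 (SD, n = 12 rats; limma, adjusted p = 0.0063), a 1.51-fold difference, from -1.09 in rat 9 to 0.42 in rat 3, the only rat above 0. The slide means of *Gdf15* were -0.24, -0.61 and -0.93. *Bmp7*, a BMP of epithelia, had a smaller ratio of -0.16 ± 0.17 (adjusted p = 0.0384), below 0 in all 12 rats but as close to it as -0.0017 in rat 3. With the slide as a block, the adjusted p of *Bmp7* was 0.0514. The gene also missed the threshold without rat 1, 4, 5, 7, 9, 10 or 11 (adjusted p up to 0.0747). Its call was lost in limma with the processed signals (adjusted p = 0.0939) and with median centring (adjusted p = 0.114). With the allogeneic sample in Cy3 alone it had -0.13 (adjusted p = 0.0747). The mixed-effects ANOVA (adjusted p = 0.0537) and the authors' series table did not call it either.

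The other ligands on the list of core genes lay near 0. *Tgfb1* had a ratio of -0.09 ± 0.33 (adjusted p = 0.567 from limma), with 7 rats below and 5 above 0, and the lowest, rat 8, at -1.06. Without rat 8 the mean was 0.0024. *Bmp2* had -0.04 ± 0.22 (adjusted p = 0.746), *Bmp4* -0.03 ± 0.16 (adjusted p = 0.677) and *Bmp6* -0.08 ± 0.29 (adjusted p = 0.52). The remaining ligand probes, of *Bmp5*, *Bmp15*, *Gdf6*, *Gdf9*, *Gdf10*, *Gdf11* and *Inhbc*, had ratios between -0.05 and 0.06 and were not called. Of these, *Bmp15*, whose product is known from the oocyte, exceeded background clearly on only 3 of 24 arrays in either group, so that its ratio says little.

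**Figure D2:**
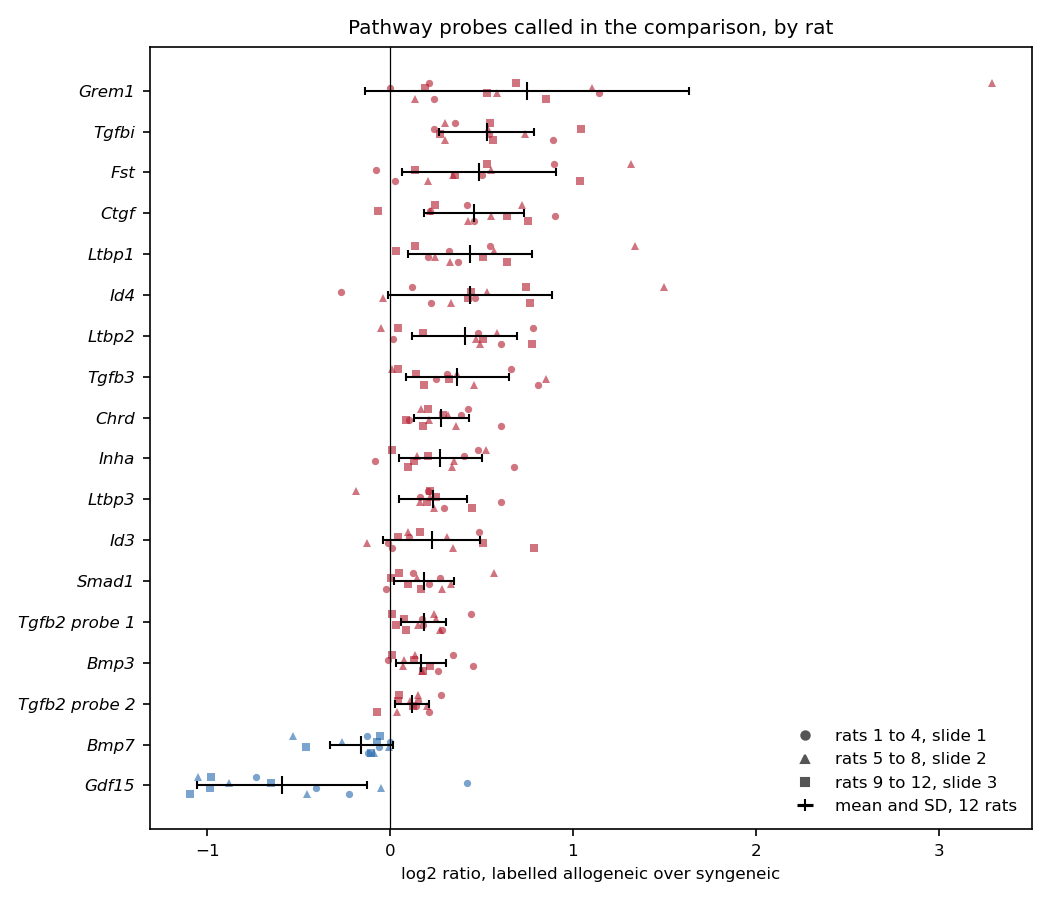
Log2 ratio, the sample labelled as allogeneic over the syngeneic one, in each of 12 rats for the 18 called pathway probes, with the mean and SD as black bars and the symbol giving the slide. The point of *Grem1* at 3.29 is rat 8, and the only point of *Gdf15* above 0, at 0.42, is rat 3.

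Ligands of this family have similar sequences, so the probes are shown for the ligands that were lower and for *Tgfb1* and *Inhba*, which were not called, with *Fst*, which encodes the activin antagonist follistatin. Capitals mark the longest run that the probe shares with the probe of any other pathway gene. Over the 63 probes this run was 7 to 12 bases long (median 8) in a probe of 60 bases. Each probe shown can be read in at least 1 frame without a stop codon. Chromosome, start and end are those of the scanner files, for which the header names build rn3, and they were not compared with a genome.
*Gdf15* probe, chr16:19313388-19313447, plus strand: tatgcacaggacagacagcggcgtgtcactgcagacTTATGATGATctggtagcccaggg
*Bmp7* probe, chr3:163633415-163633474, minus strand: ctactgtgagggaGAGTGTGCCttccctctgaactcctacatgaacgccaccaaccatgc
*Tgfb1* probe, chr1:80988234-80988293, plus strand: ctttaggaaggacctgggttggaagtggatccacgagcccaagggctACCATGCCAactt
*Inhba* probe, chr17:57247445-57247504, minus strand: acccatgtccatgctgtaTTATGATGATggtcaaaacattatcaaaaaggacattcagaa
*Fst* probe, chr2:46471460-46471519, minus strand: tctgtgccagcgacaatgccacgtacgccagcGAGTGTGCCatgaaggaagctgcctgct
The run of *Gdf15* and *Inhba*, which are opposite in sign here, is 10 bases, and that of *Bmp7* and *Fst* is 9 bases.

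None of the 12 receptor probes was called, against 17.3% of all probes, and 2 of 12 had an unadjusted p under 0.05, against 30.2% of all probes. These were *Bmpr2*, the type II receptor for BMPs, and *Tgfbr3*, betaglycan, which presents TGF-beta to its other receptors. *Bmpr2* had a ratio of 0.24 ± 0.36 (limma, adjusted p = 0.117), with 10 of 12 rats above 0, and *Tgfbr3* had 0.06 ± 0.082 (adjusted p = 0.1). *Bmpr1a*, a type I receptor for BMPs, had 0.16 ± 0.29 (adjusted p = 0.196), above 0 in 11 of 12 rats. *Bmpr2* and *Bmpr1a* passed the threshold in the exact signed-rank test (adjusted p = 0.0305 and 0.0477). In limma without rat 8, *Bmpr2* was called at 0.15 (adjusted p = 0.035), and *Bmpr1a* had 0.08 (adjusted p = 0.0605). With allogeneic RNA in Cy3 *Bmpr2* had 0.55 (adjusted p = 0.00156), and with it in Cy5 -0.08 (adjusted p = 0.659). *Tgfbr3* was called without rat 7, at 0.08 (adjusted p = 0.0469), and with the processed signals. The receptors proper for TGF-beta lay at 0.05 ± 0.15 for *Tgfbr1* (adjusted p = 0.444) and -0.06 ± 0.45 for *Tgfbr2* (adjusted p = 0.795). For *Tgfbr2* the rats ranged from -1.06 to 0.72. *Acvr1* had a ratio of -0.0088 ± 0.18 (adjusted p = 0.926) and *Acvr2a* one of -0.03 ± 0.17 (adjusted p = 0.746). *Acvr2a* was below 0 in 10 of 12 rats and was called without rat 8, at -0.07 (adjusted p = 0.0106). The other receptor probes lay between -0.10 and 0.14.

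Binding proteins and antagonists formed the group with the largest share of calls, 6 of 11 probes (54.5%, against 17.3% of all probes), and all 6 were higher. The median ratio of the group was 0.24. The proteins that hold latent TGF-beta in the matrix were represented by *Ltbp1*, *Ltbp2* and *Ltbp3*, all called, and by *Ltbp4*, of which neither probe was. Chordin, gremlin and follistatin were also higher, and *Nog*, which encodes noggin, was not called.

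*Ltbp1* had a log2 intensity of 11.47 to 12.36 (median 12.04) in the syngeneic samples and of 11.91 to 12.81 (median 12.47) in those labelled as allogeneic. The groups overlapped, and each rat moved in the same direction. The ratio was 0.44 ± 0.34 (SD, n = 12 rats; limma, adjusted p = 0.00588), from 0.03 in rat 11 to 1.34 in rat 8. In the arrays with the allogeneic sample in Cy5 it was 0.61, and in those with it in Cy3 0.26 (adjusted p = 0.0891). *Ltbp2* had a ratio of 0.41 ± 0.29 (adjusted p = 0.00351) and *Ltbp3* one of 0.24 ± 0.18 (adjusted p = 0.00674), each above 0 in 11 of 12 rats. The slide means of *Ltbp2* lay close together, at 0.47, 0.38 and 0.38. *Ltbp3* came mostly from 1 orientation, with 0.41 where the allogeneic sample was in Cy3 and 0.06 (adjusted p = 0.413) where it was in Cy5. The probes of *Ltbp4* gave 0.03 ± 0.049 and -0.04 ± 0.14.

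*Chrd* had the smallest adjusted p of the antagonists. Its log2 intensity was 9.92 to 11.51 (median 10.84) in the syngeneic samples and 10.01 to 11.68 (median 11.10) in the others. The groups overlapped, and within every rat the sample labelled as allogeneic was higher. The ratio was 0.28 ± 0.15 (SD, n = 12 rats; limma, adjusted p = 0.000734), from 0.086 in rat 10 to 0.61 in rat 1, and it was alike in the dye orientations, at 0.30 and 0.26. *Fst* had a larger ratio and a wider spread, 0.49 ± 0.42 (adjusted p = 0.0104), above 0 in 11 of 12 rats, with 1.32 in rat 8 and -0.08 in rat 3. *Fst* was not called in the arrays with the allogeneic sample in Cy5 alone, at 0.32 (adjusted p = 0.0817). The related *Fstl3* had 0.18 ± 0.34 (adjusted p = 0.226) and was not called.

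*Grem1* had the highest mean of all pathway probes. The intensity was 8.68 to 11.99 (median 11.37) in the syngeneic samples and 11.35 to 12.38 (median 12.06) in those labelled as allogeneic, and the groups overlapped. Its ratio was 0.75 ± 0.89 (SD, n = 12 rats; limma, adjusted p = 0.0487), with 11 rats above 0 and rat 8 at 3.29. Without rat 8 it was 0.52 (adjusted p = 0.00431). It missed the threshold without rat 1, 2, 4, 5, 6, 7, 9, 10, 11 or 12, each time with rat 8 kept (adjusted p up to 0.0919), and with the slide as a block (adjusted p = 0.0526), the mixed-effects ANOVA (adjusted p = 0.0717) or the fit over genes (adjusted p = 0.0509). *Nog* had 0.09 ± 0.15 (adjusted p = 0.2) and *Chrdl2*, a relative of chordin, 0.08 ± 0.19.

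**Figure D3:**
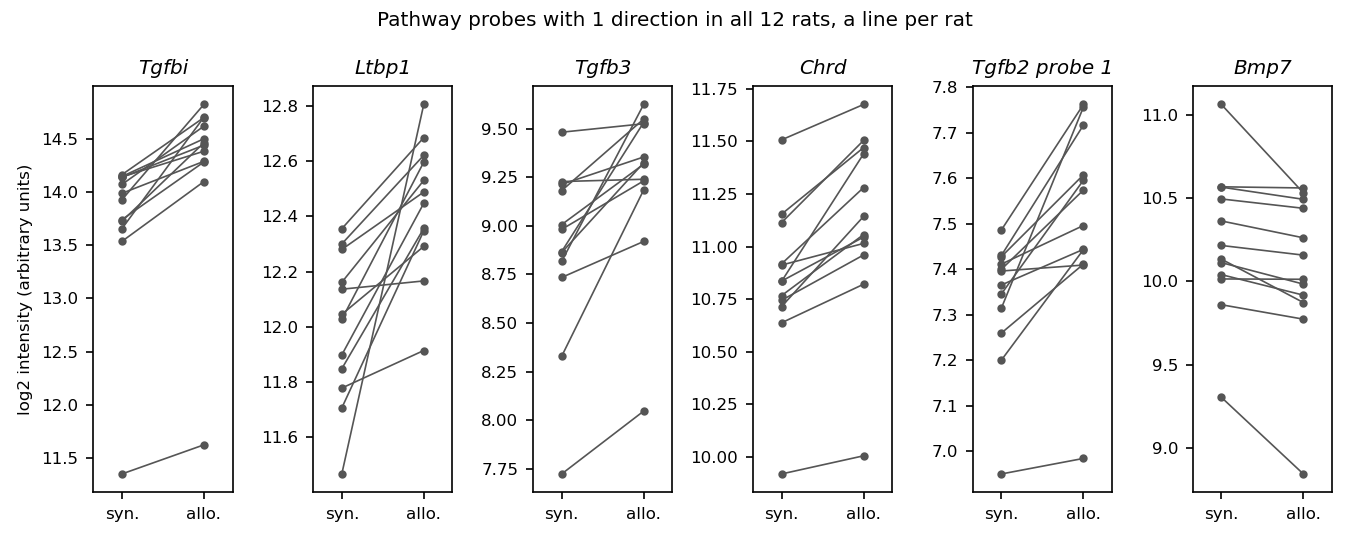
Log2 intensity of the 6 pathway probes that moved in 1 direction in all 12 rats, with a line from the syngeneic to the allogeneic sample of each rat by the labels. The scale differs between panels and levels of different probes cannot be compared. The lines rise in the panels of *Tgfbi*, *Ltbp1*, *Tgfb3*, *Chrd* and *Tgfb2* and fall in that of *Bmp7*, while the 2 columns of points overlap in each.

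Of the Smad genes, which encode the proteins that carry the signal to the nucleus, 1 of 7 probes (14.3%) was called, a share near the 17.3% of all probes. *Smad1*, of the BMP branch, had a log2 intensity of 8.98 to 11.24 (median 11.05) in the syngeneic samples and of 9.08 to 11.52 (median 11.26) in the others. Its ratio was 0.19 ± 0.16 (adjusted p = 0.0129 from limma), with 11 of 12 rats above 0, the groups overlapping, and rat 8 the highest at 0.57. In the arrays with the allogeneic sample in Cy5 alone the ratio was 0.10 (adjusted p = 0.119). *Smad5*, of the same branch, had -0.01 ± 0.074 (adjusted p = 0.807), and *Smad4*, shared by both branches, had 0.04 ± 0.30 (adjusted p = 0.792). The 2 probes of *Smad2*, of the TGF-beta branch, gave -0.09 ± 0.42 (adjusted p = 0.658) and -0.0032 ± 0.29 (adjusted p = 0.984). For probe 1 of *Smad2*, 10 rats were below 0 and the highest was at 1.12, and without rat 8 it was called, at -0.20 (adjusted p = 0.0157). *Smad6*, an inhibitory Smad, had 0.06 ± 0.19 (adjusted p = 0.464), and without rat 8 it was called, at 0.11 (adjusted p = 0.0275). *Smad3* exceeded background clearly on only 2 of 24 arrays in either group.

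Among targets and other genes of the pathway, 4 of 11 probes (36.4%) were called, all higher. Of all probes, 17.3% were called and 8.78% were higher. *Tgfbi*, which encodes a matrix protein named for its induction by TGF-beta, had the smallest adjusted p of the 63. Its log2 intensity was 11.35 to 14.16 (median 13.96) in the syngeneic samples and 11.63 to 14.82 (median 14.45) in those labelled as allogeneic, so that the groups overlapped. Rat 10 set both lowest values, and without it the ranges began at 13.54 and 14.10. The ratio was above 0 in every rat, from 0.24 to 1.05, with a mean of 0.53 ± 0.26 (SD, n = 12 rats; limma, adjusted p = 0.000355), a 1.44-fold difference. Slide means of *Tgfbi* were 0.51, 0.47 and 0.61.

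*Ctgf*, now named *Ccn2*, encodes connective tissue growth factor, a matrix protein induced by TGF-beta in fibroblasts. Its log2 intensity was 8.86 to 11.46 (median 10.62) in the syngeneic samples and 9.499 to 12.06 (median 11.28) in the others. The ratio was 0.46 ± 0.28 (adjusted p = 0.00128 from limma), with rat 11 at -0.06 and the other rats between 0.22 and 0.90.

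The Id genes, which encode inhibitors of helix-loop-helix factors, are textbook targets of BMP signaling. *Id4* had a ratio of 0.44 ± 0.45 (limma, adjusted p = 0.0264) and *Id3* one of 0.23 ± 0.27 (adjusted p = 0.0483), each above 0 in 10 of 12 rats. *Id4* lost its call without rat 9 or rat 12 (highest adjusted p = 0.0588). *Id3* lost it without rat 1, 3, 4, 5, 7, 9, 10, 11 or 12 (highest adjusted p = 0.0954). It also lost it with the slide as a block (adjusted p = 0.0564), median centring (0.17, adjusted p = 0.216), the allogeneic sample in Cy5 alone (0.14, adjusted p = 0.142), the exact signed-rank test (adjusted p = 0.0578), the mixed-effects ANOVA (adjusted p = 0.0685), the series table (adjusted p = 0.056), rats 8 and 10 left out (adjusted p = 0.0755), array 1 of rat 10 left out (adjusted p = 0.0589) and the fit over genes (adjusted p = 0.0503). *Id2* had 0.18 ± 0.46 (adjusted p = 0.382), and the probes of *Id1* gave 0.13 ± 0.30 (adjusted p = 0.313) and 0.03 ± 0.14 (adjusted p = 0.624), with 7 of 12 rats above 0 for either. Within the slides, *Id4* had means of 0.14, 0.58 and 0.59, and *Id3* of 0.15, 0.16 and 0.38. The remaining probes, of *Tgfb1i1*, *Tgfb1i4*, *Tgfbrap1* and *Bmp2k*, lay between -0.05 and 0.06 and were not called.

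Promoters are shown for the 3 called genes with the smallest adjusted p, *Tgfbi*, *Chrd* and *Ctgf*, and for *Gdf15*, which moved the other way, because members that move together may be compared by their sequence. They are from RefSeq, build GRCr8, and run from 250 bases before to 50 bases after the start of the gene, which was found for 48 of the 57 genes. Capitals mark the letters GTCTG (or CAGAC on the other strand) and GGCGCC (its own complement), short motifs that Smad proteins are known to bind, which can share an end base.
*Tgfbi* promoter, chr17:7990064-7990363, minus strand: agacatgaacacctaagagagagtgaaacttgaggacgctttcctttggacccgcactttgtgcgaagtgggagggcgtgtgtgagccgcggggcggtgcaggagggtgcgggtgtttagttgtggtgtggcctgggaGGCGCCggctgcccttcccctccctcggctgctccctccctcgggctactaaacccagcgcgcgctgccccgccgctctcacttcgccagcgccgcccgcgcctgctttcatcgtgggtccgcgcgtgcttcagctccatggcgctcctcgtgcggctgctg
*Chrd* promoter, chr11:93685051-93685350, minus strand: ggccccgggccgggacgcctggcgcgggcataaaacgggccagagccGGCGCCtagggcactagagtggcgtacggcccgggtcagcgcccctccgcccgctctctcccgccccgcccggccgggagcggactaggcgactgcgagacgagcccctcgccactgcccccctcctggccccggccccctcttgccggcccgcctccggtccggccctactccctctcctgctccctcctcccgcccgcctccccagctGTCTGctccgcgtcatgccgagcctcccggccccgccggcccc
*Ctgf (Ccn2)* promoter, chr1:22624565-22624864, minus strand: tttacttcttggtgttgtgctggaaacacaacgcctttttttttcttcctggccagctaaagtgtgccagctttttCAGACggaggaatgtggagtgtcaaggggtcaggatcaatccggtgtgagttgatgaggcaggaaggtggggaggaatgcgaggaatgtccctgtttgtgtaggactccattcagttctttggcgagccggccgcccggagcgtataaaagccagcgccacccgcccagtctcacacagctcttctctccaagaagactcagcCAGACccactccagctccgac
*Gdf15* promoter, chr16:18838186-18838485, plus strand: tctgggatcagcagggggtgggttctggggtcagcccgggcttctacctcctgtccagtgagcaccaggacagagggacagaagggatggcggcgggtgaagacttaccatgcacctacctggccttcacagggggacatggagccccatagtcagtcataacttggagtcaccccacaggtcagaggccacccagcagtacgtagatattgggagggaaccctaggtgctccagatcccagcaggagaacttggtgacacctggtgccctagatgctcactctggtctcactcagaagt
The promoter of *Chrd* holds each motif 1 time, that of *Ctgf* has GTCTG 2 times, that of *Tgfbi* has GGCGCC 1 time, and that of *Gdf15* has neither. GTCTG occurs in 50.1% of the 33469 promoters of this length, in 7 of 14 genes called higher and in 9 of 33 not called. GGCGCC occurs in 11.0% of all promoters, in 5 of 14 genes called higher (35.7%) and in 11 of 33 not called (33.3%). A match is a description of letters, and no match says only that these letters are not in this window.

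The 2 dye orientations were set side by side for every pathway probe, since each rat was measured in both. All 18 called probes had the same sign in both orientations, as had 89.0% of the called probes of the whole array. They were called on the mean of these same orientations, which favors a shared sign. Of the 63 pathway probes, 34 (54%) had the same sign in both, near the 48.8% of all probes. For 6 pathway probes the orientations were each called by limma and opposite in sign, so that their mean lay near 0. The largest such split was that of *Acvr1*, an activin and BMP receptor, with -0.36 (adjusted p = 0.000217) where the allogeneic sample was in Cy5 and 0.34 (adjusted p = 0.000804) where it was in Cy3. Probe 1 of *Inhbb* had -0.28 and 0.36, and *Acvr2b* had -0.19 and 0.17. *Tgfb1i4* (-0.22 and 0.26), *Smad5* (-0.10 and 0.08) and *Bmp5* (0.08 and -0.06) were the others. With 1 orientation alone, 28 of the 63 probes (44.4%) were called in either case, beside 31.5% (Cy5) and 29.6% (Cy3) of all probes, with 11 lower where the allogeneic sample was in Cy5 and 3 lower where it was in Cy3. *Tgfb1* was among those lower in the first, at -0.29 (adjusted p = 0.0307), and had 0.11 (adjusted p = 0.371) in the second.

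**Figure D4:**
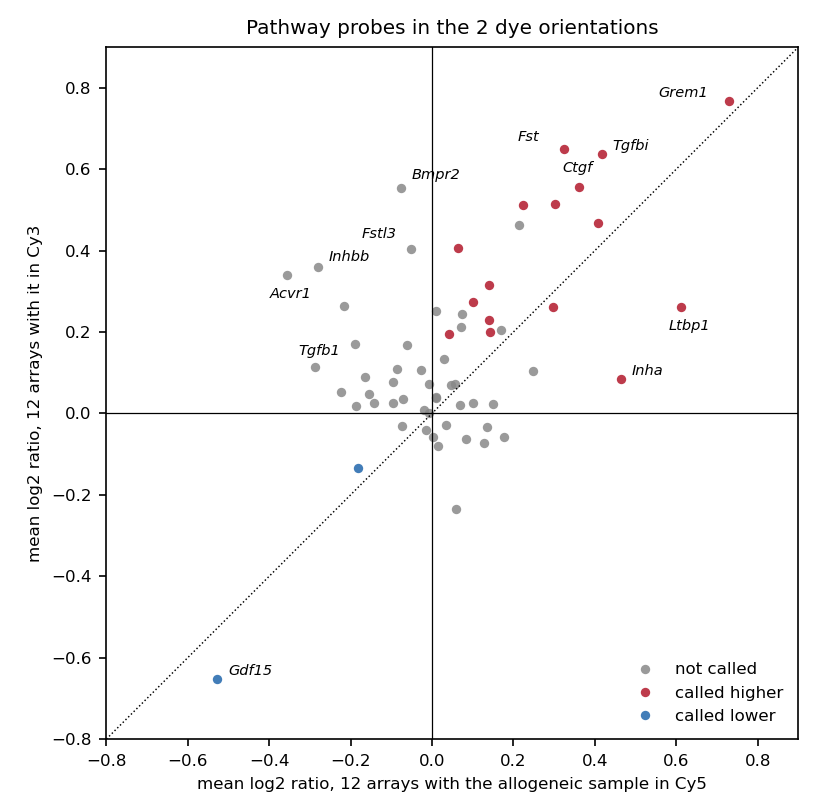
Mean log2 ratio of the 63 pathway probes, the sample labelled as allogeneic over the syngeneic one, in the 12 arrays with the allogeneic sample in Cy5 and in the 12 with it in Cy3. The dotted line marks equal values. The 18 called probes lie in the upper right and lower left quadrants, and *Acvr1* and probe 1 of *Inhbb* lie in the upper left one, with opposite signs.

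Further genes of the pathway that the naming rule does not take were looked up from a list of 77 symbols, of which 40 genes had 45 probes. Of these probes, 10 were called higher and 3 lower, with a median ratio of 0.07. Over all probes, 8.78% were higher and 8.48% lower. In the list of proteins that hold or activate latent TGF-beta, 5 of 11 probes were higher and 1 was lower. Among modulators 1 of 17 was higher, and among targets 4 of 17 were higher and 2 lower. Among those higher, *Col1a2*, a chain of type I collagen, had a ratio of 0.55 (SE 0.108, adjusted p = 0.00399 from limma), and *Htra1*, a secreted protease, 0.48 (SE 0.0532, adjusted p = 0.000128). Lower were *Fn1*, the gene for fibronectin, at -0.36 (SE 0.106, adjusted p = 0.0337), and both probes of *Cdkn1a*, which encodes a cell cycle inhibitor induced by TGF-beta and by p53, at -0.29 and -0.27 (adjusted p = 0.00497 and 0.00795). Targets known to be induced by TGF-beta were thus called on both sides of 0.

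Markers of several cell types moved in the same comparison, in which 8.48% of all probes were called lower and 8.78% higher by the labels. Macrophage markers were lower in the sample labelled as allogeneic for 5 of 9 probes, with a mean log2 intensity of the list of 9.10 to 10.10 in those samples and of 9.63 to 10.92 in the syngeneic ones. T cell markers were lower for 5 of 11 probes (7.50 to 7.97 and 7.73 to 8.45) and NK cell markers for 4 of 8 (7.37 to 7.93 and 7.48 to 8.18). Of the B cell probes 0 of 4 were called, of the skeletal muscle probes 0 of 2, and the keratinocyte probe was not called. Fibroblast markers were higher for 2 of 4 probes (10.52 to 11.58 and 10.08 to 11.26), *Postn* and *Col1a2*, and endothelial markers for 4 of 7 (9.36 to 10.66 and 9.11 to 10.26). No marker probe on these lists was below background on all arrays of both groups. With the sign turned, the macrophage, T cell and NK cell markers would be higher and the fibroblast and endothelial ones lower. The part of these cell types in the pathway results was not tested. In bulk tissue, a change in the number of cells of a type and a change in the RNA per cell cannot be told apart.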

How the data were processed

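Total RNA of the explants was amplified, labeled and hybridized by the authors to a custom two-color array. For each array the authors deposited the mean and local background intensity of every spot as scanned, and a processed intensity after background subtraction and dye normalization by the Feature Extraction software (version 9.5.1.1 in the file headers, an earlier one in the methods). The amplification kit also differs between labels and methods. They also deposited a table of log2 ratios whose centring and background treatment are not stated. For the direction there are the sample titles, which read stimulated vs. non-stimulated for both arrays of a rat. The columns of that table had a correlation of 0.703 to 0.957 with the allogeneic over syngeneic ratio of the processed intensities. Their medians were -0.027 to 0.022, and they were used as turned. The submitters' processing notes name limma, and the methods name loess normalization and a mixed-effects ANOVA.

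Background was corrected on the mean intensities by normexp (offset 50), followed by loess normalization within arrays, in R 4.3.3 with limma 3.58.1. Control and outlier spots were left out, swapped arrays were turned, and spots of a probe and then both arrays of a rat were averaged. Probes were tested with limma (intercept, 12 rats) over 8453 probes. Levels are log2 intensities per channel after Aquantile normalization. On simulated data for this comparison, 200 of 8453 probes were changed. From these, limma recovered 98% of changes of 1 and 90% of changes of 0.5 on the log2 scale, and 4.08% of its calls were false. The simulated noise was Gaussian and independent between probes and rats, without dye effects or an outlying rat. These percentages are therefore not the error rates of the calls made here. The 63 probes were matched to RefSeq by accession (42), symbol (20) or synonym (1).

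Named were all genes with a called probe, a list of core pathway genes, the uncalled probe with the largest difference in each role group, and the 3 called probes with the largest difference in each direction of the further pathway list, of which 1 is not reported here. The members and lists were chosen with earlier results of these data known. Alternatives concerned the background, normalization, dye orientation, dim probes, outlier spots, slide, test (mixed-effects ANOVA with lmerTest 3.1.3, exact signed-rank test), series table, averaging of probes and each rat left out, and the closing section gives their effect. Leaving out rats 8 and 10, or array 1 of rat 10, was added after seeing the data.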

Additional observations from a re-analysis of the deposited data

How the results depend on the processing

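The numbers of called probes were recomputed under each alternative. Of 63 pathway probes, 18 were called, 16 higher and 2 lower. Leaving out 1 rat at a time gave 14 (without rat 9) to 23 (without rat 8) in all, 13 to 19 higher and 1 to 4 lower. Of all probes, 13.7% were called without rat 9 and 24.7% without rat 8, against 17.3% with all rats. With 1 dye orientation alone, 28 were called in either case, 17 higher and 11 lower with the allogeneic sample in Cy5, and 25 higher and 3 lower with it in Cy3, where 21 other pathway probes were called instead of 13. The number called lower was 1 with the processed signals, median centring, the slide as a block, the mixed-effects ANOVA and the series table, and 4 without rats 8 and 10, a choice made after seeing the data. Over all alternatives, 8 of the 18 called probes kept their call throughout, and among 486 values of the called probes 434 kept the call, 52 lost it and 0 changed sign. The exceptions were mostly those of *Grem1*, *Bmp7* and *Id3*. The limma fit on 24 arrays with the replicate block, pairing the arrays of a rat, called 20 pathway probes and lost none of the 18. That fit called 20.5% of all probes. With the probes of a gene averaged, 15 of 57 genes were called, 13 higher and 2 lower, against 1181 of all 7263 genes. *Grem1* and *Id3* were not called in that fit. Against the sign of their mean, 6 uncalled probes were called in 1 orientation: *Inhbb* (-0.28, Cy5), *Smad5* (0.0766, Cy3), *Acvr1* (0.34, Cy3), *Acvr2b* (0.17, Cy3), *Tgfb1i4* (-0.22, Cy5) and *Bmp5* (-0.06, Cy3). No rat had a correlation below -0.3 with the others, so no sign was turned. Signal over background limits *Smad3* and *Bmp15* most. *Inhbc* was well above it on 10 of 24 arrays in the samples labelled as allogeneic and on 11 in the syngeneic ones. For *Tgfbrap1* these numbers were 11 and 11, for *Acvr1c* 13 and 13, for *Gdf10* 15 and 16, and for *Gdf9* 19 and 11. Ratios near 0 of these dim probes say less than those of bright ones. The cause was not tested for any of these changes.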

Other observations

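Rat 8 stood apart among the pathway probes. It had the highest or the lowest log2 ratio of the 12 rats for 33 of the 63 probes, and the next was rat 3 with 17. Its values were the highest for *Grem1* (3.29), *Id4* (1.50), *Ltbp1* (1.34) and *Fst* (1.32), and the lowest for *Bmp7* (-0.53). Over the pathway probes alone, rat 3 had the lowest correlation with the mean of the other rats, 0.108, and rat 8 had 0.436. Of the 16 probes called higher, 16 were above 0 in rats 4, 5, 7, 10 and 12, and 12 in rat 3, the lowest number. These probes were chosen by their mean over the same rats, so the counts describe the spread and support nothing.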
